A study of Mus musculus with 12 samples.

Results

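The question addressed was whether the difference between Chd4 knockout (KO) and wild-type (WT) splenic B cells changed when the cells were stimulated. For each gene the KO against WT log2 fold change at 48 hr minus that at 0 hr, here called the interaction, was tested in all 12 of 12 libraries. Mouse splenic B cells were sequenced in 4 groups of 3 libraries. WT 0 hr (replicates 1 to 3) and KO 0 hr (replicates 4 to 6) were unstimulated. WT 48 hr (replicates 7 to 9) and KO 48 hr (replicates 10 to 12) had been cultured ex vivo for 48 hr with 10 µg/ml lipopolysaccharide (LPS) and 25 ng/ml interleukin 4 (IL-4). The labels give the genotype only as WT or KO, and the promoter or Cre line behind the deletion, the age and the sex of the mice are not given in the sources used here. Whether the 3 replicates of a group were separate mice is not stated either, so the spread behind each p-value may be technical. Of 19125 genes tested, the 16015 with an autosomal position are described, because sex-linked genes also differed between the genotype labels.

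CHD4 is the ATP-driven motor of NuRD, a chromatin complex that joins nucleosome movement to removal of histone acetyl groups. LPS acts through Toll-like receptor 4 and NF-κB, and IL-4 acts through STAT6. Given together to B cells in culture, they start division and switching of the antibody heavy chain to IgG1 and IgE, and part of the culture moves toward plasma cells. A positive interaction means that KO was higher relative to WT after stimulation than before it. That can arise from a difference at 0 hr, at 48 hr, or at both in opposite directions, so the level in each group is given beside it.

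Library totals ran from 39 to 53.2 M estimated counts. The B cell genes Cd79a and Ms4a1 were each at 789 CPM (estimated counts scaled to a library size of 1e6) or above in every library. Chd4 RNA, the check of the labels, was at 99.4, 68.1 and 92.8 CPM in WT 0 hr, 100, 70.6 and 92.8 in KO 0 hr, 102, 96.1 and 123 in WT 48 hr and 51.3, 38.8 and 74.7 in KO 48 hr. At 0 hr the labelled genotypes overlapped in Chd4 RNA (KO against WT 0.02 on the log2 scale, adjusted p = 0.993). At 48 hr every KO library was below every WT library (-0.96, adjusted p = 0.0383). The Chd4 interaction of -0.98 (SE 0.31) did not pass the test (adjusted p = 0.347), and counts over the whole gene do not check a deletion of part of it. KO and WT therefore mean libraries labelled so. KO 0 hr replicate 6 and KO 48 hr replicate 12 stood apart from the other KO libraries. Whether the genotype of these 2 libraries matches their label was not tested. On the second principal component of the autosomal genes (6.5% of the variance) they lay at 11.2 and 5.9, WT libraries at 9.4 to 23.1, and the other KO libraries at -14 or below. The female-specific RNA Xist was at 75.4 to 293 CPM in WT and at most 1.59 CPM in KO libraries. The Y-linked Ddx3y was at 20.8 to 28.3 CPM in WT and 91.8 to 139 CPM in KO. Sex-linked expression and genotype cannot be told apart in these libraries. In bulk RNA, fewer cells of a type and less RNA per cell cannot be told apart either.

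The interaction passed an adjusted p of 0.05 (edgeR quasi-likelihood F test, Benjamini-Hochberg over all tested genes) for 21 autosomal genes, 0.131% of those tested. It was positive in 12 (0.0749%) and negative in 9 (0.0562%). Their median absolute size was 1.54 on the log2 scale, the smallest was 0.90, and 20 of the 21 exceeded a 2-fold difference between the effects. At an unadjusted p under 0.05 there were 1413 genes (8.82%), 761 positive (4.75%) and 652 negative (4.07%). The median interaction over all autosomal genes was -0.0029. KO against WT alone was called for 1.14% of autosomal genes at 0 hr and 2.16% at 48 hr. Of the 21 interaction genes, 12 were also called at 0 hr, 14 at 48 hr, 6 at both times and 1, Grn, at neither. These comparisons share libraries with the interaction and are not independent of it.

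Positions below are those of GENCODE M21 on GRCm38 (mm10). The 21 genes were sorted by where the fitted genotype difference lay, without requiring that it pass the test at each time. In 8 genes the fitted KO against WT differences were opposite in direction at the 2 times, each at least 0.5 on the log2 scale. In 7 the difference lay mostly at 48 hr (at least 2 times that at 0 hr) and in 4 mostly at 0 hr, and 2 fell in no class. Read along time instead, the change with stimulation was larger in WT for 9 genes, larger in KO for 8, and opposite in direction for 4. KO and WT libraries did not overlap for 17 of the 21 at 0 hr, 18 at 48 hr and 14 at both times, against 15.1%, 21.6% and 4.4% of all autosomal genes. The test and this separation use the same libraries.

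**Figure D1:**
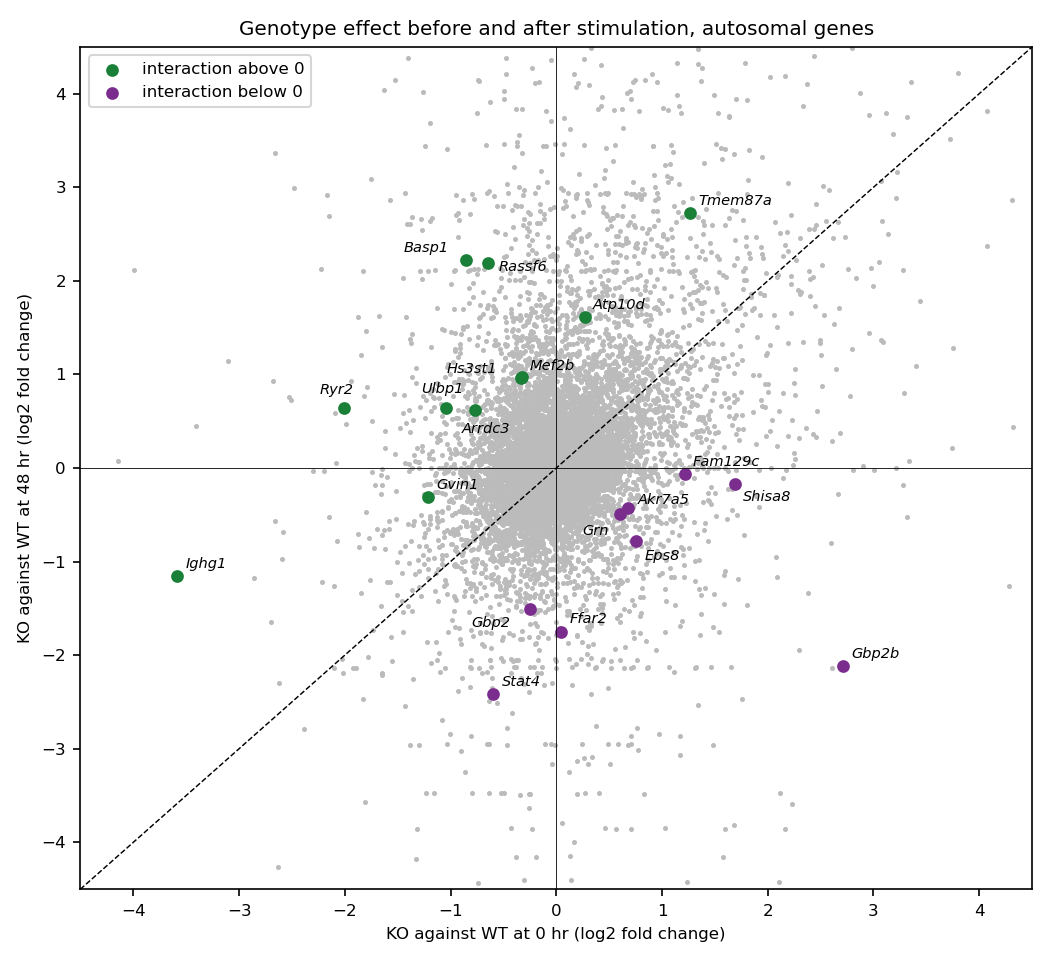
KO against WT log2 fold change at 0 hr (x axis) and at 48 hr (y axis) for autosomal genes (grey points), with 20 of the 21 called genes coloured by the sign of the interaction and the dashed line marking equal effects. Called genes lie off the line, Gbp2b furthest below it at 2.71 and -2.12, while 127 genes lie beyond the axes at 4.5, among them Gm6460, which had 0 counts in KO 0 hr.

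Stat4 and 3 interferon-inducible GTPases were among the 21 called genes. Stat4 (chromosome 1, 51987148 to 52107189), a transcription factor activated by interleukin 12 and type I interferon, had the smallest p. It was at 86.8, 111 and 82.1 CPM in WT 0 hr and 58.1, 59.8 and 67.4 CPM in KO 0 hr. After stimulation it was at 414, 431 and 414 CPM in WT and 79.4, 71.0 and 85.1 CPM in KO. The 3 stimulated WT libraries stood alone, and the other 9 were at 58.1 to 111 CPM. Stat4 rose over 48 hr by 2.17 on the log2 scale in WT and by 0.35 in KO. The interaction was -1.82 (SE 0.17, 95% interval -2.20 to -1.45, adjusted p = 0.00130), with KO against WT at -0.59 before and -2.42 after stimulation. The same direction held in the main transcript uc011wkn.2, which carried 91.8% of the gene's reads (interaction -1.89, adjusted p = 0.0262 among transcripts).

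Gbp2b and Gbp2 encode guanylate-binding proteins, interferon-induced GTPases that act against intracellular pathogens. They are neighbours on the plus strand of chromosome 3, Gbp2b at 142594847 to 142619179 and Gbp2 at 142620602 to 142638008, 1422 bases apart. Gbp2b was at 0.211, 1.03 and 0.597 CPM in WT 0 hr and 3.78, 5.78 and 2.37 CPM in KO 0 hr, where every KO library was above every WT library. At 48 hr the order was the opposite, with 78.3, 87.9 and 82.3 CPM in WT and 21.1, 14.2 and 21.8 CPM in KO. Gbp2b rose by 7.10 in WT and 2.26 in KO on the log2 scale, and its interaction of -4.83 (SE 0.53, adjusted p = 0.00273) was the most negative among the called genes. Gbp2 was at 28.6, 32.8 and 24.7 CPM in WT 0 hr and 22.1, 28.1 and 22.3 CPM in KO 0 hr, and these groups overlapped. It reached 1327, 1351 and 1323 CPM in WT 48 hr and 441, 433 and 537 CPM in KO 48 hr. Its interaction was -1.26 (SE 0.19, adjusted p = 0.0276). Both neighbours were lower in KO after stimulation, and at 0 hr Gbp2b was higher in KO by 2.71 (adjusted p = 0.00478) while Gbp2 was at -0.25 (adjusted p = 0.575).

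The promoters of this neighbouring pair are shown because their genes had negative interactions side by side. Each sequence is the 250 bases before the gene's start in RefSeq (GRCm38.p6, plus strand, 5′ to 3′), chr3:142594597-142594846 for Gbp2b and chr3:142620413-142620662 for Gbp2. Capitals mark matches to the core of the interferon-stimulated response element, GAAANNGAAA, read here on the opposite strand, and in Gbp2 also, first in the sequence, a match to the AP-1 motif TGANTCA.
Gbp2b: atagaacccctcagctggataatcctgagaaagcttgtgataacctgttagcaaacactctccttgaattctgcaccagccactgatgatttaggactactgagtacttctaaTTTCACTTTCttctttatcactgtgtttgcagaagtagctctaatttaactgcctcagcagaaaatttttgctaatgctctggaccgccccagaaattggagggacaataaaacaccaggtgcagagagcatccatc
Gbp2: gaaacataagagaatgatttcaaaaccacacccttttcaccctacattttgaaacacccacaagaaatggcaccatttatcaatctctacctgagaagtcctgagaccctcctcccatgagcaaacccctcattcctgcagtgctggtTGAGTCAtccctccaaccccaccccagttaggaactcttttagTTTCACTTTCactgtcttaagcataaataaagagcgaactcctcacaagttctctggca
The interferon element was added to the motifs after these promoters had been read, so its presence in both is a description. On both strands it occurred in 2.78% of 11961 autosomal promoters of tested genes and in 2 of the 16 promoters found for called genes, those of Gbp2b and Gbp2. The other motifs searched were the E-box CACGTG (7.92% of promoters, and Ffar2 among the 16), the STAT site TTCNNNGAA (6.35%, and Gm6460), AP-1 (5.02%, and Ffar2 and Gbp2) and the wider-spaced STAT6 type (4.72%, and 0 of the 16).

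Gvin1 (chromosome 7, 106156556 to 106215326), a very large interferon-inducible GTPase, showed a different pattern. It was at 330, 315 and 331 CPM in WT 0 hr and 141, 141 and 140 CPM in KO 0 hr. At 48 hr it was at 330, 333 and 374 CPM in WT and 281, 288 and 267 CPM in KO. The genotypes did not overlap at either time, but the gap narrowed from -1.21 to -0.31, an interaction of 0.90 (SE 0.13, adjusted p = 0.0198). Its level is uncertain in absolute terms, since Gvin1 overlaps the pseudogene Gm18853 on the same strand. Reads of the shared part cannot be assigned with certainty. The gene lists used from here on were written with earlier results of these data known. Of the 18 tested interferon-inducible GTPases, 3 were called, Gvin1 higher and Gbp2 and Gbp2b lower, beside 0.131% of all autosomal genes. At an unadjusted p under 0.05, 5 were positive and 4 negative, beside 4.75% and 4.07% of all autosomal genes. Their median interaction was -0.12, beside -0.0029 over all autosomal genes. The GTPase Iigp1 was at 5.88, 5.97 and 4.52 CPM in WT 0 hr and 1.12, 1.16 and 0.853 in KO 0 hr, then 9.73, 7.75 and 8.90 in WT 48 hr and 1.38, 1.37 and 1.06 in KO 48 hr. It was lower in KO at both times, and its interaction of -0.40 had a 95% interval of -1.09 to 0.29 (adjusted p = 0.787). Among 35 interferon-response genes 0 were called, with 3 positive and 0 negative at an unadjusted p under 0.05. DESeq2 called 2, Cxcl10 and Irf9, the likelihood ratio test 1 and limma-voom 0. Of all autosomal genes these tests called 1.25%, 1.02% and 0.106%. The chemokine gene Cxcl10 had an interaction of 2.01 (adjusted p = 0.0853), from 0.304, 0.678 and 0.412 CPM in KO 0 hr against 1.28, 1.86 and 1.19 in WT, to 11.1, 9.76 and 12.9 in KO 48 hr against 9.19, 8.02 and 8.49 in WT. Of 27 STAT and cytokine signalling genes, Stat4 was the 1 called, and the other 26 had none at an unadjusted p under 0.05.

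**Figure D2:**
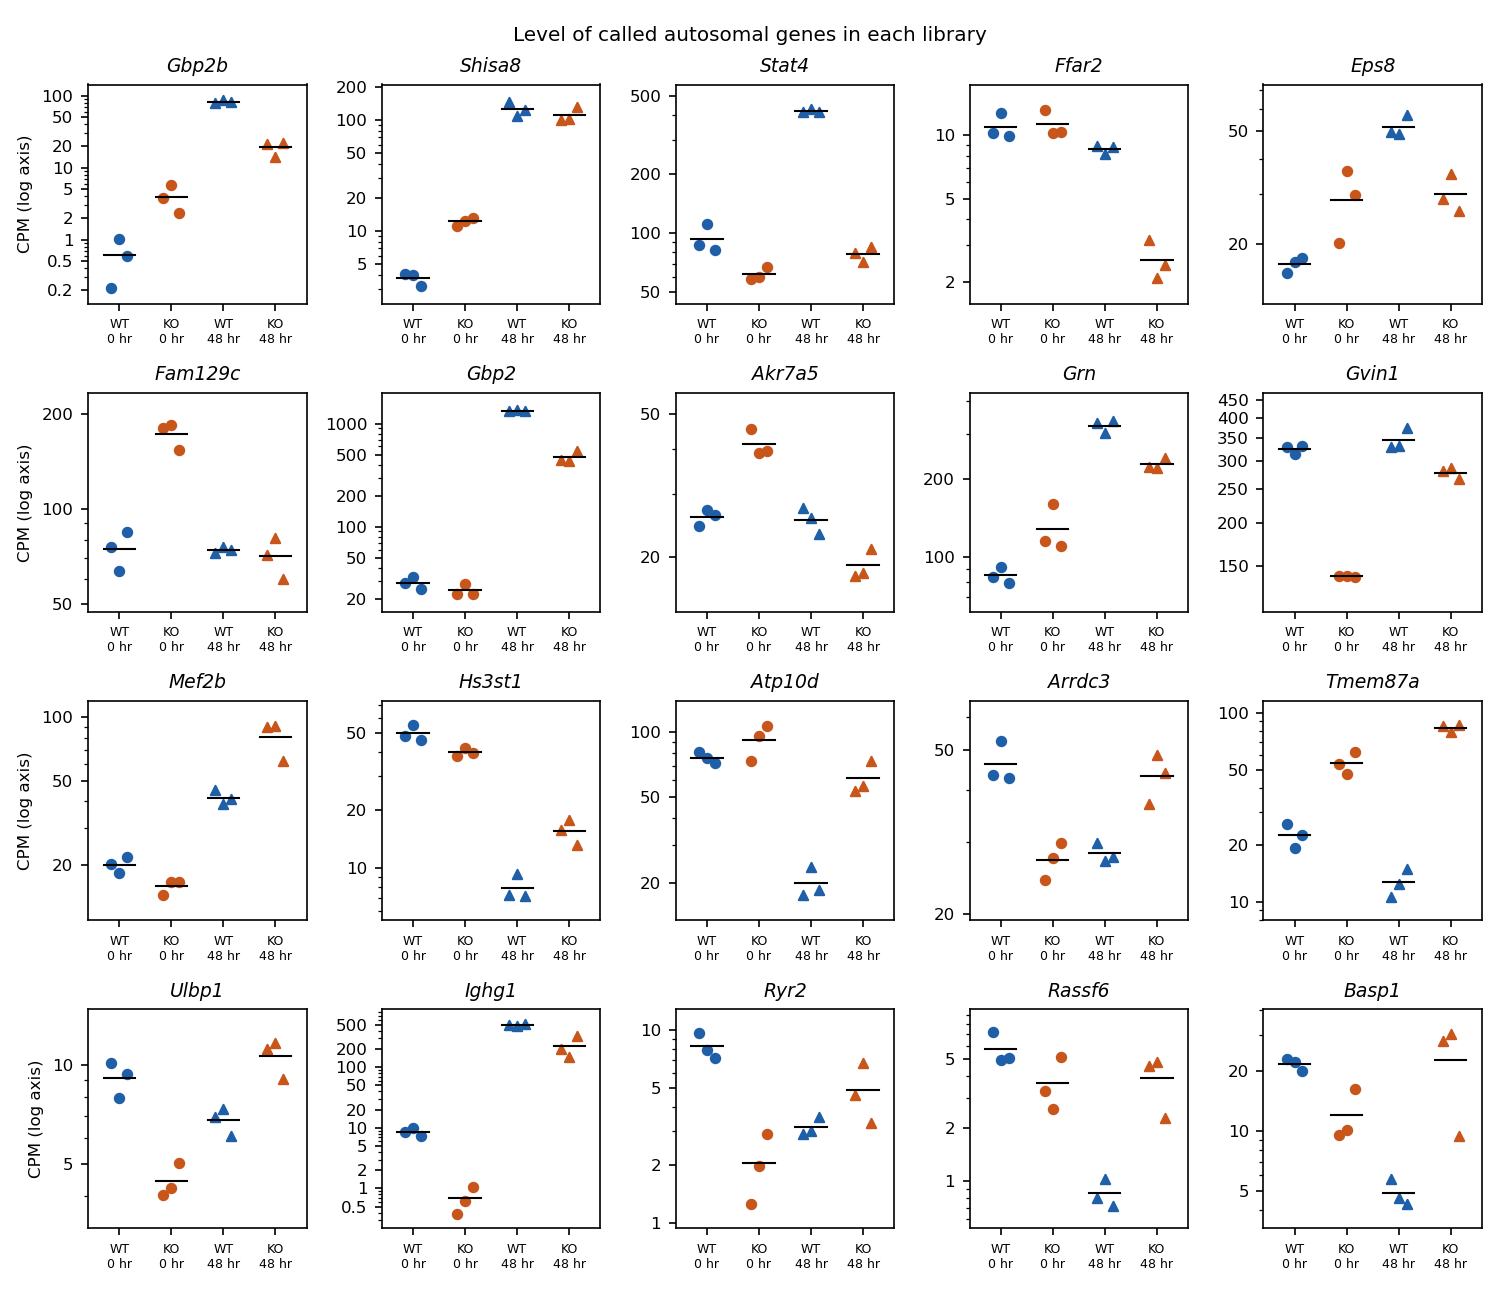
Level of 20 called genes in every library (CPM, log axis), ordered from the most negative interaction (Gbp2b) to the most positive (Basp1), with points for libraries and black lines for group means. For Stat4 the 3 WT 48 hr libraries stand alone at 414 to 431 CPM, and Gm6460 is left out because it had 0 counts in KO 0 hr.

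Genes of the germinal center, the site where activated B cells mutate and select their antibodies, held 2 of the calls, both positive. Basp1 (chromosome 15, 25363277 to 25413764), a membrane-associated signalling protein, had 22.8, 22.0 and 19.8 CPM in WT 0 hr and 9.57, 10.1 and 16.2 CPM in KO 0 hr. At 48 hr it was at 5.72, 4.59 and 4.30 CPM in WT and 28.0, 30.6 and 9.41 CPM in KO. The order of the genotypes turned between the 2 times. KO against WT alone passed at 48 hr (adjusted p = 0.00496) and not at 0 hr (adjusted p = 0.348). Libraries 6 and 12 lay nearest to WT among KO. The interaction was 3.07 (SE 0.49, adjusted p = 0.0291), the largest positive value among called genes with counts in every group, and 3.72 without those 2 libraries. Mef2b (chromosome 8, 70139711 to 70167488), a transcription factor of germinal center B cells, was at 20.3, 18.4 and 21.8 CPM in WT 0 hr and 14.5, 16.7 and 16.7 CPM in KO 0 hr. After stimulation it had 45.0, 38.7 and 40.9 CPM in WT 48 hr and 89.8, 90.5 and 62.3 CPM in KO 48 hr. It rose with stimulation by 1.04 in WT and 2.34 in KO on the log2 scale (interaction 1.30, SE 0.21, adjusted p = 0.0291). Mef2b overlaps Borcs8 on the same strand, and reads of the shared part cannot be assigned with certainty.

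Of the 14 tested germinal center genes these 2 were called, beside 0.131% of all autosomal genes. At an unadjusted p under 0.05, 8 were positive and 0 negative, beside 4.75% and 4.07% over all autosomal genes. The list was written with earlier results of these data known, so its counts are a description and not independent support. Limma-voom called 0 of the 14, and 2 with quality weights, while DESeq2 and the likelihood ratio test each called 4. Of all autosomal genes, limma-voom called 0.106%, and 0.2% with quality weights, DESeq2 1.25% and the likelihood ratio test 1.02%. The list's median interaction was 1.17, from a median KO against WT of -0.61 at 0 hr and 0.56 at 48 hr. Without KO replicates 6 and 12 the count was 7 of 14, with Bcl6, Mybl1, Nuggc and S1pr2 among those added, where 0.741% of all autosomal genes were called. Those 4 were looked at in each library after their values were known. They were picked from the calls without replicates 6 and 12, so the place of these replicates in them follows partly from that choice. The receptor gene S1pr2, which holds B cells inside the germinal center, was at 11.4, 14.1 and 11.2 CPM in WT 0 hr and 0.873, 2.83 and 7.95 in KO 0 hr. After stimulation it had 2.63, 2.19 and 2.74 CPM in WT 48 hr and 6.36, 8.44 and 3.79 in KO 48 hr. Bcl6, the master repressor of the germinal center program, was at 56.6, 56.8 and 56.2 CPM and 32.5, 39 and 75.7 CPM at 0 hr in WT and KO, and at 5.85, 5.02 and 6.47 and 11.6, 12.7 and 6.69 CPM at 48 hr. The nuclear GTPase gene Nuggc was at 5.83, 7.04 and 6.47 CPM in WT 0 hr and 0.551, 0.724 and 4.93 in KO 0 hr, and at 0.154, 0.0270 and 0 CPM in WT 48 hr and 0.764, 0.660 and 1.71 in KO 48 hr. The transcription factor gene Mybl1 was at 2.88, 2.61 and 2.83 CPM in WT 0 hr and 0.494, 0.678 and 2.50 in KO 0 hr, and at 1.24, 1.81 and 1.74 CPM in WT 48 hr and 3.35, 2.24 and 2.49 in KO 48 hr. For all 4 of these genes the last KO 0 hr value, from replicate 6, was the one nearest to or above the WT libraries. At 48 hr replicate 12, the last KO value, was nearest to WT for S1pr2 and Bcl6, but was the KO value furthest from WT for Nuggc and lay between the other 2 for Mybl1. With all libraries the adjusted p was 0.238 for S1pr2, 0.483 for Bcl6, 0.132 for Nuggc and 0.414 for Mybl1.

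Heavy-chain genes were examined next. Ighg1 (chromosome 12, 113325240 to 113330523), the constant region of IgG1, was at 8.56, 9.76 and 7.38 CPM in WT 0 hr and 0.380, 0.632 and 1.07 CPM in KO 0 hr. After stimulation it was at 493, 468 and 522 CPM in WT and 197, 149 and 320 CPM in KO, and KO stayed below WT without overlap. The deficit narrowed from -3.59 to -1.15 on the log2 scale (interaction 2.43, SE 0.41, adjusted p = 0.0436), so the rise with stimulation was larger in KO (8.28 on the log2 scale) than in WT (5.85) although the final level was lower. Ighg1 was the 1 gene called among 5 tested heavy-chain constant regions, beside 0.131% of all autosomal genes. DESeq2 also called Ighg1, the likelihood ratio test called Ighg1 and Ighe, and limma-voom, with or without quality weights, called 0. Of all autosomal genes, DESeq2 called 1.25%, the likelihood ratio test 1.02% and limma-voom 0.106%, or 0.2% with quality weights. Ighe, the IgE constant region, was at 2.65, 0.534 and 0.211 CPM in WT 0 hr and 0.0570, 0.123 and 0.323 CPM in KO 0 hr, which overlapped. At 48 hr it was at 33.1, 34.2 and 29.4 CPM in WT and 79.2, 81.9 and 22.5 CPM in KO, with replicate 12 below the WT libraries. KO against WT was -2.68 at 0 hr and 0.93 at 48 hr on the log2 scale (interaction 3.61, 95% interval 1.33 to 5.89, adjusted p = 0.298). The 0 hr levels were low, and WT replicate 1 was the highest of them.

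Shisa8 (chromosome 15, 82206168 to 82212815), a membrane protein of a family best known for neuronal glutamate receptors, was among the 3 genes with the smallest p. It was at 4.11, 4.03 and 3.22 CPM in WT 0 hr and 11.1, 12.4 and 13.1 CPM in KO 0 hr, with KO above WT in every library. At 48 hr it reached 144, 109 and 123 CPM in WT and 100, 102 and 130 CPM in KO, and the groups overlapped. The interaction was -1.87 (SE 0.21, adjusted p = 0.00273). Fam129c (chromosome 8, 71597648 to 71607936), a gene expressed mainly in B cells, passed between genotypes at 0 hr (adjusted p = 3.05e-04) and not at 48 hr (adjusted p = 0.879). It was at 75.5, 63.7 and 84.6 CPM in WT 0 hr, 181, 184 and 154 in KO 0 hr, 72.5, 75.8 and 74.1 in WT 48 hr and 71.3, 81.0 and 59.8 in KO 48 hr. The change over time was -0.01 in WT and -1.29 in KO on the log2 scale (interaction -1.28, adjusted p = 0.0217). Ffar2 (chromosome 7, 30818348 to 30823775), a receptor for short-chain fatty acids, showed the reverse order of events. It was at 10.3, 12.7 and 9.89 CPM in WT 0 hr and 13.2, 10.3 and 10.4 CPM in KO 0 hr, which overlapped, then 8.88, 8.10 and 8.83 in WT 48 hr and 3.18, 2.08 and 2.41 in KO 48 hr, which did not (interaction -1.79, SE 0.28, adjusted p = 0.0291).

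Eps8 (chromosome 6, 137477245 to 137654876), a regulator of actin filaments, changed order between the 2 times. It was at 15.8, 17.3 and 17.9 CPM in WT 0 hr and 20.1, 36.3 and 29.7 CPM in KO 0 hr, and at 49.6, 48.7 and 57.2 CPM in WT 48 hr and 28.8, 35.3 and 26.2 CPM in KO 48 hr. Its interaction was -1.54 (adjusted p = 0.0436), and 0.051 was the adjusted p without KO replicates 6 and 12. KO against WT alone missed the threshold at 0 hr (adjusted p = 0.0758) and passed at 48 hr (adjusted p = 0.0455). Akr7a5 (chromosome 4, 139310744 to 139318426), an aldehyde-reducing enzyme, was at 24.4, 27.1 and 26.3 CPM in WT 0 hr and 45.6, 39.1 and 39.6 in KO 0 hr, and at 27.4, 25.8 and 23.3 CPM in WT 48 hr and 17.7, 18.1 and 21.1 in KO 48 hr. KO was thus above WT before stimulation and below it after (interaction -1.10, adjusted p = 0.0291). KO against WT alone passed at 0 hr (adjusted p = 0.0145) but not at 48 hr (adjusted p = 0.104). Grn (chromosome 11, 102430315 to 102437048), the gene of the secreted growth factor progranulin, was at 83.8, 92.1 and 79.4 CPM in WT 0 hr and 115, 161 and 110 in KO 0 hr, and at 329, 301 and 335 CPM in WT 48 hr and 223, 222 and 243 in KO 48 hr. Its interaction of -1.09 (adjusted p = 0.0494) had the largest adjusted p among the called genes.

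Among genes with a positive interaction, Arrdc3 (chromosome 13, 80883384 to 80896042), an alpha-arrestin that directs membrane receptors into endosomes, turned from lower to higher in KO. It was at 43.5, 52.7 and 42.7 CPM in WT 0 hr, 24.1, 27.4 and 29.7 in KO 0 hr, 29.7, 27.0 and 27.6 in WT 48 hr and 37, 48.5 and 44.0 in KO 48 hr, with no overlap at either time. It fell by 0.72 on the log2 scale with stimulation in WT and rose by 0.67 in KO (interaction 1.39, adjusted p = 0.0154). Ulbp1 (chromosome 10, 7440362 to 7473638), a ligand of the natural killer cell receptor NKG2D, was likewise lower in KO at 0 hr and had no overlap at 48 hr, where KO libraries were higher (KO against WT adjusted p = 0.101). It was at 10.2, 7.91 and 9.37 CPM in WT 0 hr and 4.02, 4.22 and 5.04 in KO 0 hr, and at 6.95, 7.32 and 6.06 CPM in WT 48 hr and 11.1, 11.7 and 9.02 in KO 48 hr (interaction 1.69, adjusted p = 0.0291). Ryr2 (chromosome 13, 11553102 to 12106945), a calcium release channel of the endoplasmic reticulum, was at 9.62, 7.87 and 7.19 CPM in WT 0 hr and 1.25, 1.97 and 2.90 in KO 0 hr. The groups overlapped at 48 hr, with 2.88, 3.00 and 3.53 CPM in WT and 4.61, 6.75 and 3.32 in KO (interaction 2.65, adjusted p = 0.0436).

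Hs3st1, Atp10d and Rassf6 fell with stimulation in WT and less, or not detectably, in KO. Hs3st1 (chromosome 5, 39613935 to 39755475), a heparan sulfate sulfotransferase, was at 48.3, 55.0 and 46.1 CPM in WT 0 hr and 38.0, 41.6 and 39.5 in KO 0 hr, and at 7.26, 9.37 and 7.16 CPM in WT 48 hr and 15.8, 17.7 and 13.1 in KO 48 hr (interaction 1.30, adjusted p = 0.0291). Atp10d (chromosome 5, 72203329 to 72298775), a lipid-transporting ATPase that the annotation lists as a polymorphic pseudogene, was at 80.8, 75.8 and 72.4 CPM in WT 0 hr and 73.8, 96.0 and 107 in KO 0 hr. Its levels at 48 hr were 17.7, 23.8 and 18.7 CPM in WT and 53.8, 56.5 and 73.7 in KO (interaction 1.34, adjusted p = 0.0436). Rassf6 (chromosome 5, 90603076 to 90640657), a Ras-association domain protein, was at 7.21, 4.98 and 5.10 CPM in WT 0 hr and 3.28, 2.59 and 5.16 in KO 0 hr. It fell to 0.798, 1.03 and 0.716 CPM in WT 48 hr and was at 4.56, 4.80 and 2.28 CPM in KO 48 hr, where replicate 12 had the lowest KO value (interaction 2.84, adjusted p = 0.0436).

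Tmem87a (chromosome 2, 120355312 to 120404113), a Golgi membrane protein, was higher in KO at both times, and more so after stimulation. It was at 25.9, 19.3 and 22.6 CPM in WT 0 hr, 53.5, 47.3 and 61.9 in KO 0 hr, 10.6, 12.3 and 15 in WT 48 hr and 84.8, 79.0 and 86.7 in KO 48 hr (interaction 1.46, adjusted p = 0.0217). Of its 4 transcripts listed, 3 had higher means in KO at both times. Transcript uc033hpr.1 averaged 4.05 and 17.3 CPM in WT and KO at 0 hr and 4.03 and 45.3 CPM at 48 hr, uc033hps.1 averaged 4.08, 23.3, 4.21 and 31.9 CPM in the same order, and uc033hpq.1 averaged 2.04, 5.16, 0.944 and 3.64 CPM. Transcript uc008lvq.2 had the opposite order, at 11.8, 7.57, 3.63 and 2.45 CPM, and none of the 4 passed the interaction test among transcripts (adjusted p from 0.909 to 1.00). Gm6460 (chromosome 5, 11594913 to 11599784), a predicted gene outside the naming rule and named here after its values were seen, had 0 counts over the 3 KO 0 hr libraries and 41 over WT 0 hr. It had 23 counts in WT 48 hr and 147 in KO 48 hr. The kit does not record strand, so reads of Tmem87a and the opposite-strand gene Ganc, and of Grn and Fam171a2, cannot be told apart where they overlap. Fam129c overlaps Pgls on the same strand. For Gm6460, with 3 counts over the KO 0 hr group taken as the floor and the other group sums taken as exact, the interaction was at least 6.60 on the log2 scale. That value carries no sampling error of these low counts.

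**Figure D3:**
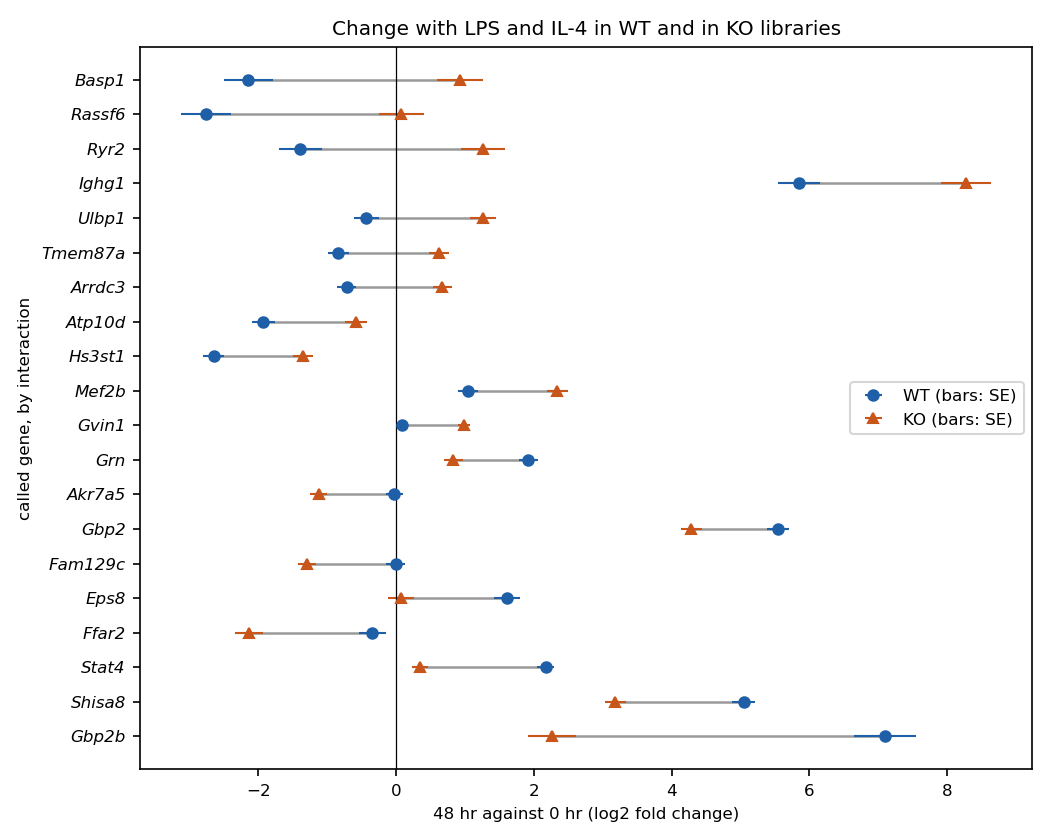
Change from 0 hr to 48 hr (log2 fold change, x axis) in WT (circles) and KO (triangles) for 20 called genes, ordered by interaction, with bars for the standard error of each fitted change. The marks of Stat4 lie at 2.17 in WT and 0.35 in KO, and those of Basp1 at -2.15 and 0.93.

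In lists tied to antibody secretion, members at an unadjusted p under 0.05 all had positive interactions, and none was called. That was not particular to secretion, and held for p53 targets and replication-dependent histones among other lists. The secretion lists, too, were written with earlier results of these data known. Of 20 plasma cell genes 0 were called by edgeR's quasi-likelihood test, and 9 were positive and 0 negative at an unadjusted p under 0.05 (4.75% and 4.07% over all autosomal genes), with a median interaction of 0.39. DESeq2 and the likelihood ratio test each called 5 of them (Creld2, Derl3, Fkbp11, Pou2af1 and Prdm1), and limma-voom 1 (Pou2af1), where these tests called 1.25%, 1.02% and 0.106% of all autosomal genes. With KO replicates 6 and 12 left out, edgeR called 1 of the 20, Fkbp11, where it called 0.741% of all autosomal genes. Prdm1, the transcription factor that drives plasma cell formation, was at 5.53, 5.30 and 6.31 CPM in WT 0 hr and 4.54, 7.15 and 3.69 in KO 0 hr, and at 11.0, 11.0 and 14.9 CPM in WT 48 hr and 33.5, 31.0 and 59.5 in KO 48 hr. Its interaction was 1.90 (SE 0.39, adjusted p = 0.101). Pou2af1, a B cell coactivator of the octamer factors, was at 608, 578 and 631 CPM in WT 48 hr and 806, 786 and 804 in KO 48 hr, after 446, 502 and 430 in WT 0 hr and 326, 389 and 307 in KO 0 hr (interaction 0.83, adjusted p = 0.0761). Irf4 and Xbp1, further regulators of secretion, had interactions of 0.50 and 0.37 (adjusted p = 0.704 and 0.560). The summed plasma cell list was at 3061 to 3107 CPM in WT 48 hr and 3788 to 4110 CPM in KO 48 hr, and at 1646 to 1972 and 1919 to 2390 CPM at 0 hr.

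Of 27 genes of the unfolded protein response and the folding machinery of the endoplasmic reticulum, 0 were called by edgeR, 11 were positive and 0 negative at an unadjusted p under 0.05 (4.75% and 4.07% over all autosomal genes), and the median was 0.34. DESeq2 and the likelihood ratio test each called 2 (Creld2 and Hsp90b1), and limma-voom called Hsp90b1, where they called 1.25%, 1.02% and 0.106% of all autosomal genes. With KO replicates 6 and 12 left out, edgeR called 0 of the 27, where it called 0.741% of all autosomal genes. Hsp90b1, the chaperone GRP94, was at 454, 491 and 428 CPM in WT 0 hr and 432, 439 and 456 in KO 0 hr, which overlapped, and at 2389, 2418 and 2514 CPM in WT 48 hr and 3608, 3888 and 3765 in KO 48 hr, which did not (interaction 0.67, adjusted p = 0.0982). Heat-shock chaperones had a median of -0.18, with 0 of 21 called (1 positive and 4 negative at an unadjusted p under 0.05; DESeq2 called 1, Hsp90ab1, and limma-voom and the likelihood ratio test 0).

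Lists of cell cycle genes differed in their medians. Their counts at an unadjusted p under 0.05 are to be read beside 4.75% positive and 4.07% negative over all autosomal genes. Of all autosomal genes, edgeR called 0.131%, DESeq2 1.25%, the likelihood ratio test 1.02% and limma-voom 0.106%. The cell cycle lists were also written with earlier results of these data known. Of 30 mitosis genes 28 had a positive interaction, with 8 positive and 0 negative at an unadjusted p under 0.05, a median of 0.26 and 0 called by edgeR (DESeq2 called Cdc20, and limma-voom and the likelihood ratio test 0). The list's median KO against WT was -0.21 at 0 hr and 0.08 at 48 hr, so most of the shift lay at 0 hr. Cdc20, an activator of the anaphase-promoting complex, was at 16.8, 16.8 and 16.1 CPM in WT 0 hr, 10.5, 11.9 and 14.2 in KO 0 hr, 300, 291 and 305 in WT 48 hr and 344, 324 and 325 in KO 48 hr (interaction 0.59, adjusted p = 0.236). The 33 DNA replication genes had a median of 0.02, with 1 positive and 0 negative at an unadjusted p under 0.05 and 0 called by any of these 4 tests. Of 23 cyclins, cyclin-dependent kinases and inhibitors 0 were called by edgeR, with 2 positive and 6 negative at an unadjusted p under 0.05 (DESeq2 called 3, Ccnd3, Cdk2 and Cdkn1a, the likelihood ratio test 2 and limma-voom 0). Ccnd3, a cyclin of the first growth phase, was at 424, 408 and 446 CPM in WT 48 hr and 288, 255 and 340 in KO 48 hr (interaction -0.83, adjusted p = 0.126). Cdkn1a, the cyclin-dependent kinase inhibitor p21, was at 3.91, 3.73 and 2.79 CPM in WT 48 hr and 12.8, 6.70 and 10.6 in KO 48 hr, after 4.00, 4.49 and 2.55 and 3.46, 3.20 and 2.90 CPM at 0 hr (interaction 1.73, adjusted p = 0.143). Of 28 p53 targets, which include Cdkn1a, 7 were positive and 0 negative at an unadjusted p under 0.05, the median was 0.30, and edgeR called 0 (DESeq2 and the likelihood ratio test 1 each, limma-voom 0). With KO replicates 6 and 12 left out, edgeR called 0 mitosis genes, 0 p53 targets and 2 of the cyclin list, Ccnd2 and Ccnd3. That fit called 0.741% of all autosomal genes. Mki67 and Myc had interactions of 0.30 and -0.08 (adjusted p = 0.760 and 0.942).

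**Figure D4:**
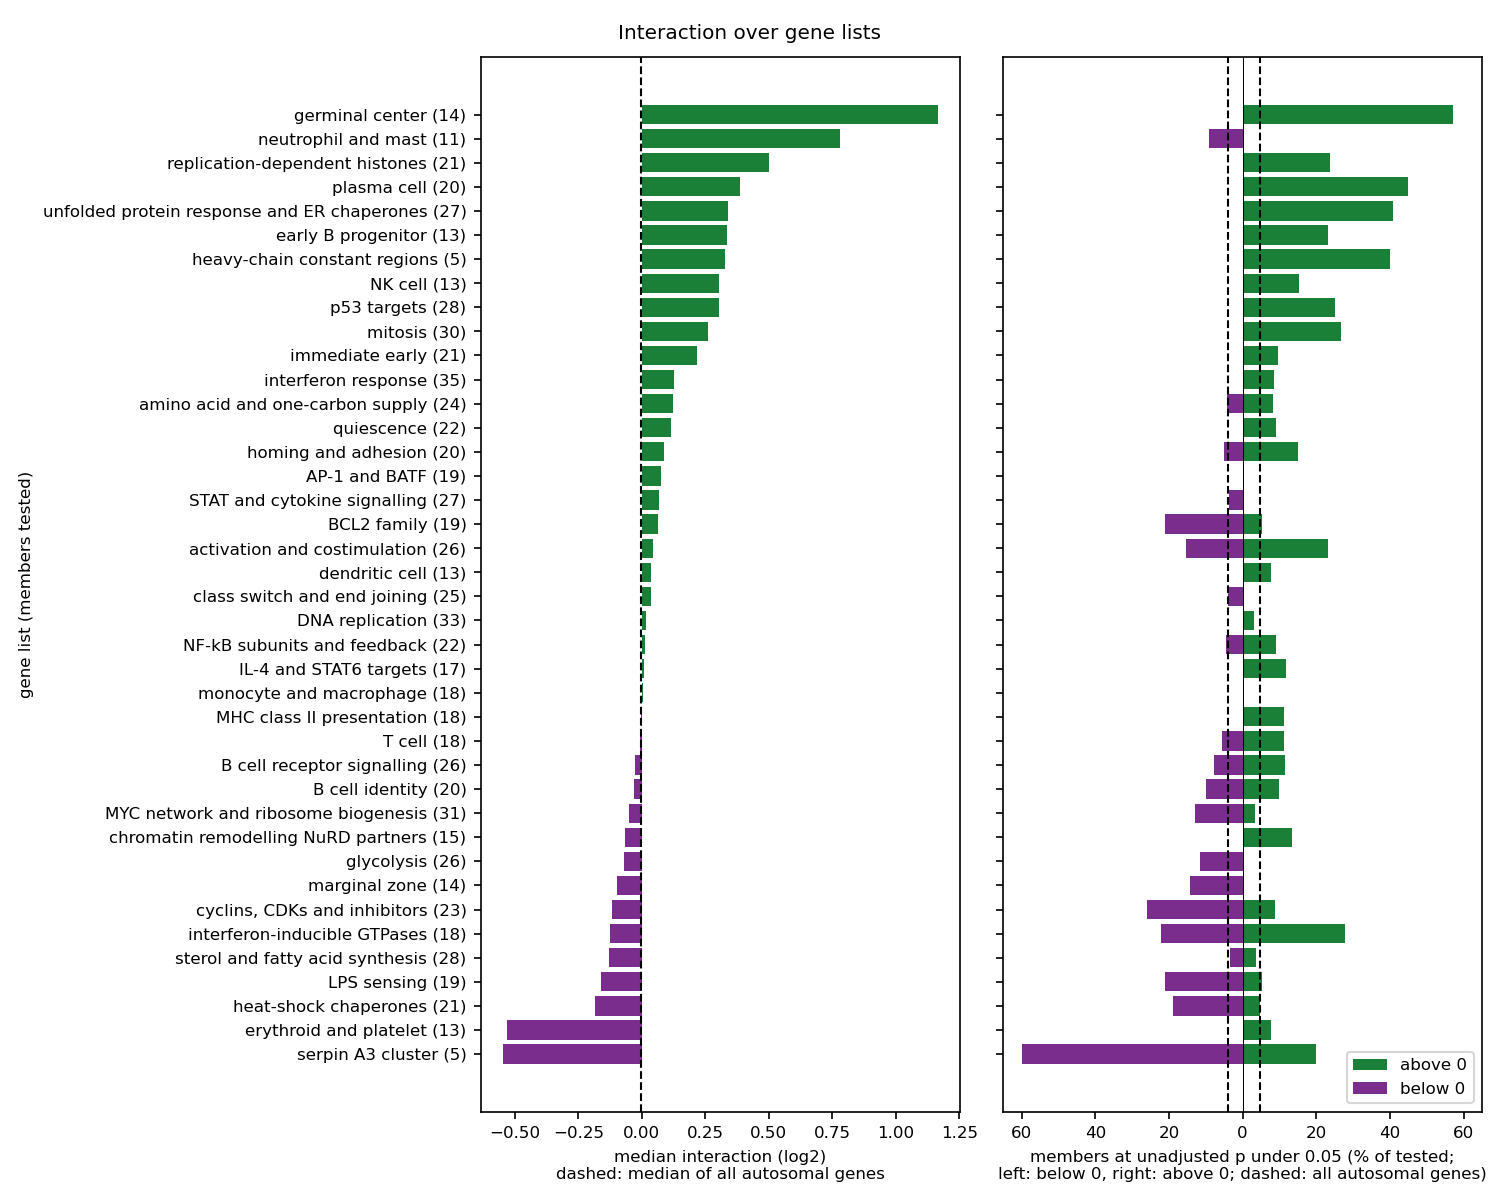
Median interaction (log2) of each of 40 gene lists (left) and the percent of each list's tested members at an unadjusted p under 0.05 above and below 0 (right), with dashed lines for all autosomal genes (4.75% above and 4.07% below 0). Germinal center genes have the highest median, 1.17. Plasma cell, unfolded protein response and mitosis genes have members at that p only above 0, as do other lists, p53 targets and replication-dependent histones among them. The lists were written with earlier results of these data known.

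Several genes of known interest in B cells or between these genotypes had no interaction call. Rbm45, an RNA-binding protein, was at 3.30, 4.13 and 3.80 CPM in WT 0 hr and 28.4, 35.2 and 38.2 in KO 0 hr, and at 5.18, 5.97 and 5.53 and 69.4, 69.4 and 58.9 CPM at 48 hr. Its KO against WT difference was 3.18 and 3.57, and the interaction of 0.39 had a 95% interval of -0.05 to 0.82 (adjusted p = 0.651). Serpina3g, a protease inhibitor, was lower in KO by -1.65 and -2.19 (interaction -0.55, 95% interval -0.93 to -0.16, adjusted p = 0.378). For Batf, a factor needed for class switching, the interval was -0.61 to 0.15, and for Pax5, the B cell identity factor, -0.63 to 0.38 (adjusted p = 0.776 and 0.932). Rapgef3, a cyclic AMP-dependent exchange factor, had an interval of -1.65 to -0.03 (adjusted p = 0.560). These intervals do not show that the effects were equal.

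Genes near 0 in WT gave large but uncertain values. Vdr, the vitamin D receptor, was at 0.211, 0.0395 and 0.439 CPM in WT 0 hr, 0.0380, 0.123 and 0.0882 in KO 0 hr and 0.0515, 1.03 and 0.947 in WT 48 hr, and at 30.3, 31.0 and 11.1 CPM in KO 48 hr. The 3 stimulated KO libraries were at 11.1 CPM or above and no other library exceeded 1.03, and the interaction of 6.59 (SE 1.18, 95% interval 4.05 to 9.13) missed the threshold (adjusted p = 0.0615). Cfap43, a protein of cilia, was at 19.6, 31.4 and 2.13 CPM in KO 48 hr and at most 1.22 CPM elsewhere, with adjusted p = 0.250. Ccnb1ip1, a meiotic recombination factor, was at 6.63, 14.9 and 9.78 CPM in KO 48 hr and 0.456, 1.46 and 0.750 in KO 0 hr, against at most 0.105 CPM in any WT library (adjusted p = 0.239). Among negative values, Fabp5, a fatty acid binding protein, came closest to the threshold without passing it. It was at 322, 357 and 280 CPM in WT 48 hr and 205, 218 and 187 in KO 48 hr, after 2.49, 3.06 and 2.23 and 3.76, 3.77 and 2.96 CPM at 0 hr (interaction -1.09, adjusted p = 0.0761).

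Markers of other cells were compared over the same libraries. The summed T cell list of 18 genes was at 77.0 to 85.0 CPM in WT 0 hr and 72.5 to 156 CPM in KO 0 hr, and at 49.5 to 55.6 and 57.5 to 126 CPM at 48 hr. The defining T cell gene Cd3e was at 0.969 to 1.68 CPM in WT 0 hr, 0.647 to 4.86 CPM in KO 0 hr and at most 0.528 CPM in any library at 48 hr. Summed erythroid and platelet genes were at 674 to 995 CPM in WT 0 hr and 393 to 3500 CPM in KO 0 hr, and at most 51.9 CPM at 48 hr. Monocyte and macrophage genes were at 245 to 485 and 245 to 677 CPM at 0 hr and at most 94.4 CPM at 48 hr. Of the 18 T cell, 13 natural killer cell, 18 monocyte, 13 dendritic cell, 11 neutrophil and mast cell, and 13 erythroid and platelet genes tested, 0 were called in the interaction by edgeR, beside 0.131% of all autosomal genes. At an unadjusted p under 0.05, 6 were positive and 2 negative, beside 4.75% and 4.07% of all autosomal genes. DESeq2 and the likelihood ratio test called 1, Cd6, and limma-voom 0, where these tests called 1.25%, 1.02% and 0.106% of all autosomal genes. The part of these cells in the called genes was not tested.

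The calls differed in how far they rested on single libraries. Stat4, Gbp2b and Shisa8 were called in 12 of 12 fits that left out 1 library. The number of called autosomal genes was lowest, at 3, when WT 48 hr replicate 7 was left out and highest, at 79, when KO 48 hr replicate 12 was left out. Dropping KO 0 hr replicate 6 gave 51. Without both of the KO libraries that stood apart, 121 genes were called (0.741%), 20 of the 21 among them. The remaining gene was Eps8. These 2 libraries were singled out in the same data for lying near WT. More calls without them follow partly from that choice, and the fit is not independent support. All 21 kept their direction in each of these fits. With sample quality weights in limma-voom, 32 genes (0.2%) were called, including 20 of the 21. Plain limma-voom called 17 (0.106%), including 14 of the 21.

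**Figure D5:**
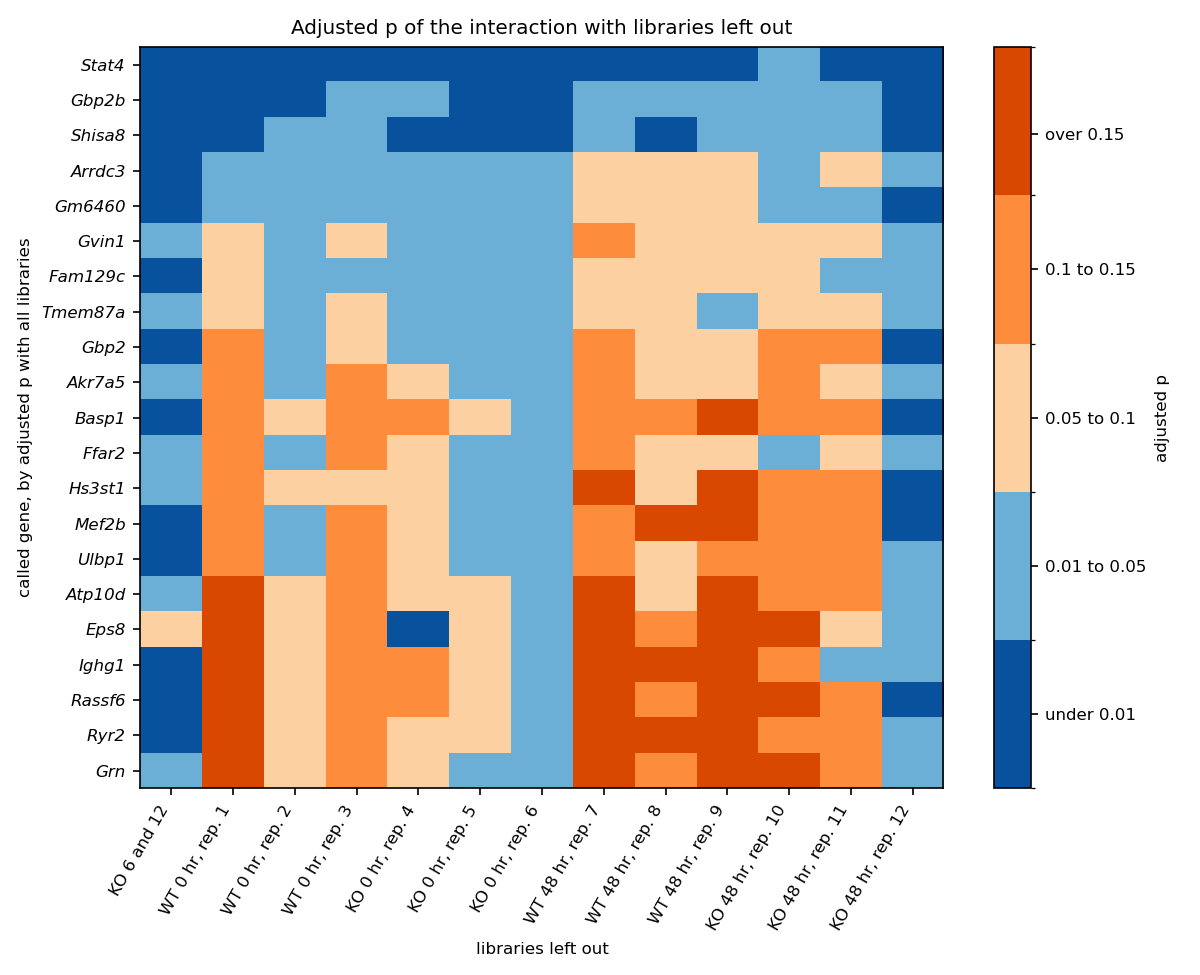
Adjusted p of the interaction for the 21 called genes (rows) when 1 library, or KO replicates 6 and 12 together, was left out (columns), in 5 colour steps from under 0.01 to over 0.15. The rows of Stat4, Gbp2b and Shisa8 are blue throughout (under 0.05), and the column without KO 6 and 12 is blue except for Eps8.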

How the data were processed

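RNA of 12 libraries was analysed from a deposited table of estimated counts per transcript, whole numbers made by the authors. Per the submitters' processing notes, the tools were bcl2fastq 2.20.0.422, Trimmomatic 0.36, Salmon 0.8.2 and DESeq2 1.14.1, with build mm10. Salmon divides reads between similar transcripts, which leaves close gene copies uncertain. The counts of 63759 transcripts were summed to 32699 symbols after spaces were trimmed from 344 names. All libraries were fitted as 4 groups in edgeR 4.0.16 (R 4.3.3; filterByExpr, TMM scaling, robust quasi-likelihood F test, 8 residual degrees of freedom). The Benjamini-Hochberg threshold was 0.05 over 19125 genes. CPM values use the scaled library sizes. The procedure was tested on simulated data.

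Genes named were Chd4, 22 standing genes, called genes at 5 CPM or more in the highest group (12 largest in each direction, 10 smallest p, 5 per class), called list members, the 10 smallest p in a direction with under 10 calls, and the 2 smallest p in each list described. Some results under this rule are not reported here. The members, standing genes and 40 lists were chosen with earlier results of these data known. Alternatives were DESeq2 1.42.0, limma 3.58.1 voom, the likelihood ratio test, other scalings and filters, a minimum fold of 1.5, single transcripts, and left-out libraries. Promoters were from RefSeq (GRCm38.p6), with 16 of 21 called genes matched.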

Additional observations from a re-analysis of the deposited data

Results flagged for a closer look

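The genotype effect differed between 0 hr and 48 hr, by the test of that difference itself, for 21 autosomal genes. Negative values on the log2 scale were -4.83 for Gbp2b, -1.87 for Shisa8, -1.82 for Stat4, -1.79 for Ffar2, -1.54 for Eps8, -1.28 for Fam129c, -1.26 for Gbp2, -1.10 for Akr7a5 and -1.09 for Grn. Positive values were 3.07 for Basp1, 2.84 for Rassf6, 2.65 for Ryr2, 2.43 for Ighg1, 1.69 for Ulbp1, 1.46 for Tmem87a, 1.39 for Arrdc3, 1.34 for Atp10d, 1.30 for Hs3st1, 1.30 for Mef2b and 0.90 for Gvin1. For Gm6460 the value was at least 6.60, with 3 counts as the floor in KO 0 hr and the other group sums taken as exact.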

How the results depend on the processing

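All 21 called genes kept their direction in each alternative that tested them (1 was not tested at 1 CPM in 3 libraries). For single transcripts, only the transcript with the smallest p of each gene was compared. Direction did not hold over all transcripts. Transcript uc007axw.2 of Stat4 was at 0.56, uc009end.2 of Eps8 at 2.78 and uc029qvo.1 of Ulbp1 at -0.19, each opposite in sign to its gene. The count of 21 became 200 with DESeq2, 164 with the likelihood ratio test, 17 with limma-voom (14 of the 21 among them), 32 with sample quality weights, 4 with a minimum fold of 1.5, 3 with each transcript as its own feature, and 121 without KO replicates 6 and 12. It ran from 3 to 79 when 1 library was left out. KO replicates 6 and 12 were singled out in these same data, so the rise without them follows partly from that choice. The 57.1% of calls that were positive became 67.1% with the likelihood ratio test, 49.5% with DESeq2, 52.6% with relative log expression scaling and 62.5% with upper-quartile scaling. With the minimum fold it was 25%, with single transcripts 33.3%, and over left-out libraries it ran from 0%, when WT 48 hr replicate 7 was dropped, up to 64.6%, when KO 48 hr replicate 12 was. Stat4 and Shisa8 were called in 26 of 26 alternatives and Gbp2b in 25, all but single transcripts (0.398). Of 12 fits without 1 library, Arrdc3 was called in 8, Fam129c in 7, Tmem87a in 6, Gbp2, Gvin1 and Ffar2 in 5, and Rassf6, Ryr2, Basp1 and Atp10d in 2. Among genes not called, the sign of Myc turned when KO 0 hr replicate 5 was left out (-0.19 to 0.022 over single left-out libraries) and that of Rapgef3 in single transcripts (5.54), and the cause was not tested. No paired analysis was possible because the groups share no replicate numbers. With 3 libraries a group, a p that misses the threshold does not show equal effects.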
